A study of Mus musculus with 24 samples.

Results

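The 7 genes described here encode receptors and enzymes with which intercalated cells, which move acid and base across the wall of the collecting duct, read their surroundings. They were Insrr (an alkali sensor), Oxgr1 (a receptor for the metabolite 2-oxoglutarate), P2ry14 (a receptor for UDP-glucose), Adgrf5 (an adhesion receptor), Avpr1a (a vasopressin receptor), Gpr4 (a proton sensor) and Adcy10 (a bicarbonate sensor). They were chosen by name, for their known role as sensors, from the 54393 genes of the deposited count tables. Earlier results of these data were known when they were chosen. Insrr rose in the Dmrt2 knockouts and in the libraries labelled triple knockout, while Oxgr1 and P2ry14 fell in the Dmrt2 knockouts. With edgeR's filter on low counts, Adgrf5, Avpr1a and Gpr4 passed its test in no knockout comparison. DESeq2, and edgeR without that filter, called Adgrf5 lower in the Dmrt2 knockouts. Adcy10 lay near the limit of detection.

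RNA of embryonic mouse kidney was read after poly(A) selection in 24 bulk libraries, all of embryonic day 18.5, to ask how Dmrt2, Hmx2 and Hmx3 act on subtypes of intercalated cells. The line named Dmrt2 gave 3 knockout and 3 control libraries. The line named Hmx2/Hmx3 gave 6 libraries without Hmx3 and Hmx2 and 6 controls, in 2 tables (replicates 1 to 3 and 4 to 6). The line named Dmrt2/Hmx2/Hmx3 gave 3 libraries labelled as lacking all 3 genes and 3 controls, and the controls of every line were littermates. The alleles, the exons they remove and the background strain are not given in the sources used here. The labels do not say how many embryos the libraries of a group came from, and the p-values cover the spread among these libraries. In 5 of 6 groups some libraries held Y-linked reads and others did not, so these groups hold more than 1 embryo.

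Insrr is a receptor tyrosine kinase of the insulin receptor family that is activated by alkaline fluid rather than by insulin, and in the kidney it is known from the bicarbonate-secreting cells, named type B and non-A non-B. Oxgr1 is known from the same cells, where luminal 2-oxoglutarate raises salt uptake and bicarbonate secretion. P2ry14, Adgrf5 and Avpr1a are known from the acid-secreting type A cells: UDP-glucose acting on P2ry14 calls in neutrophils, Adgrf5 restrains proton secretion, and Avpr1a takes part in the response to an acid load. Gpr4 and Adgrf5 are also strong in endothelium, and Adcy10, the soluble adenylyl cyclase, makes cyclic AMP when bicarbonate rises.

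The promoter windows of Oxgr1 and P2ry14 are shown because these genes moved together. Each holds the 250 bases before a start of transcription, from RefSeq on GRCm38.p6, printed 5′ to 3′ on the strand of the gene. The RefSeq table matched 6 of the 7 genes, all but Insrr. Capitals mark a match to ACATTGT (a DMRT core) or TGTTTAC (a forkhead motif, the family of the intercalated cell factor Foxi1) on either strand, and CAAGTG (an HMX core) was searched as well. The motifs were chosen after the values were seen, and a match is no evidence of binding.
Oxgr1, chr14:120042436-120042685, minus strand: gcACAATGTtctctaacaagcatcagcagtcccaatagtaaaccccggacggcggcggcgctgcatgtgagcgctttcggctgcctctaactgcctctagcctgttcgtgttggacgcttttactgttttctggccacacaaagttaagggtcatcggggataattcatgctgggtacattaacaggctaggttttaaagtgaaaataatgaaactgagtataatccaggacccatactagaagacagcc
P2ry14, chr3:59131119-59131368, minus strand: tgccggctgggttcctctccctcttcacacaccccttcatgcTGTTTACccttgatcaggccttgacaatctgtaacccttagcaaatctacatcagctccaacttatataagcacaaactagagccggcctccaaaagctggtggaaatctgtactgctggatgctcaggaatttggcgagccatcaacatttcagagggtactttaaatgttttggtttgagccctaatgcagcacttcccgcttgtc
The Oxgr1 window held ACATTGT on its reverse strand, 248 bases before the start, and neither other motif. P2ry14 had 4 windows, of which the window shown held TGTTTAC 208 bases before its start and the other 3 held none of the letters searched. Of 2 Adgrf5 windows 1 held CAAGTG, and the windows of Avpr1a, Gpr4 and Adcy10 held none of them. Among 32851 windows of this length, 2.56% held ACATTGT, 3.17% held TGTTTAC and 11.6% held CAAGTG.

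Each library held between 52286824 and 127339273 counted reads, so 3 reads were worth 0.0236 to 0.0574 CPM (the usual unit of reads relative to the library total, here a total adjusted by TMM, which corrects for composition). This limit is one of counting only. Between 0.979% and 2.54% of reads were mitochondrial. Dmrt2 fell from 13.7 ± 1.39 CPM (SD, n = 3) to 1.99 ± 0.371 in its knockouts (n = 3; log2 fold change −2.79, adjusted p = 1.42e-06, edgeR's quasi-likelihood test). In the libraries labelled triple knockout Dmrt2 was not lower but higher, at 18.4 ± 0.746 against 11.5 ± 0.727 CPM (n = 3 each; log2 fold change 0.69, adjusted p = 0.00424), so these libraries are named by their label throughout and a direction drawn from them rests on that label. Hmx2 held 8 reads in all 6 Hmx3 Hmx2 knockouts together against 807 in their controls, and 2 reads in the 3 libraries labelled triple knockout against 872. Hmx3 was low throughout, with 6 against 34 and 0 against 30 reads in the same groups. In the Dmrt2 knockouts Hmx2 rose, at 14.1 ± 0.313 against 4.05 ± 0.854 CPM (log2 fold change 1.80, adjusted p = 2.95e-05). Hmx3 was at 0.944 ± 0.111 against 0.195 ± 0.180 CPM there and did not pass in edgeR (log2 fold change 2.28, adjusted p = 0.0984). Y-linked genes were read in 1 of 3 Dmrt2 knockouts (replicate 1) and all 3 Dmrt2 controls. In the Hmx3 Hmx2 comparison they were read in 2 of 6 knockouts and 4 of 6 controls, and in 2 of 3 libraries on each side of the triple comparison.

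Markers of intercalated cells were read in every group. The summed level of 12 genes shared by intercalated cells, among them Foxi1 and the proton pump subunit Atp6v1b1, was 801 to 811 CPM in the Dmrt2 knockouts against 876 to 953 in their controls. It was 982 to 1274 against 924 to 1123 CPM in the Hmx3 Hmx2 comparison and 1066 to 1070 against 1049 to 1202 CPM in the triple comparison. In whole kidney RNA, fewer cells of a type and less RNA per cell cannot be told apart, and this applies to every difference below.

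Levels were compared between the genes only as CPM per kb of exon. Adgrf5 was highest, with a median of 16.6 CPM per kb over the 24 libraries, and was above every other member in all 24. Avpr1a followed at 5.28 and was above Oxgr1 in all 24 libraries. The medians of Oxgr1, at 3.85, Gpr4, at 3.69, and Insrr, at 3.47 CPM per kb, lay close together: Oxgr1 exceeded Gpr4 in 13 libraries and Gpr4 exceeded Insrr in 16. These medians pool groups that differ in Insrr. In the Dmrt2 knockouts Insrr averaged 6.16 CPM per kb, against 3.51 for Avpr1a and 1.87 for Oxgr1. In the libraries labelled triple knockout it averaged 6.84, against 5.97 for Avpr1a and 3.81 for Oxgr1. P2ry14 was lower, at 0.463 CPM per kb, and below Insrr in all 24 libraries. Adcy10 was lowest, at 0.0135, and below P2ry14 in all 24. The length covers every annotated exon, 11059 bases for P2ry14 and 2882 for Gpr4, and the transcripts present were not determined. Without division by length the medians of P2ry14 and Gpr4 were 5.12 and 10.6 CPM. No member shares exon bases with another gene in the deposited annotation.

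The members were chosen with earlier results of these data known, so their counts beside shares of all genes are no test of the set. In the Dmrt2 comparison 3 of 6 tested members passed the test, 1 higher and 2 lower, where 0.444% of 19807 genes passed, 0.187% higher and 0.257% lower. The ranges of knockouts and controls did not overlap for 5 of the 6, beside 17.4% of all genes tested. The median log2 fold change of the 6 was −0.29, beside −0.0021 over all genes. In the Hmx3 Hmx2 comparison edgeR's quasi-likelihood test and DESeq2 each called 0 of 6 tested members, and 1 (Oxgr1) was at an unadjusted p under 0.05, as were 4.93% of all genes, where edgeR called 0.021% of 19050 genes, 0.00525% higher and 0.0157% lower. Ranges were apart for 1 member, beside 0.0787% of all genes, and the median was 0.11, beside −0.0052. Of 7 members tested in the triple comparison 1 rose and the others did not pass, where 1.03% of 21537 genes passed, 0.585% higher and 0.446% lower. Ranges were apart for 1 of the 7, beside 24.5% of all genes, and the median was −0.11, beside 9.8e-04.

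**Figure D1:**
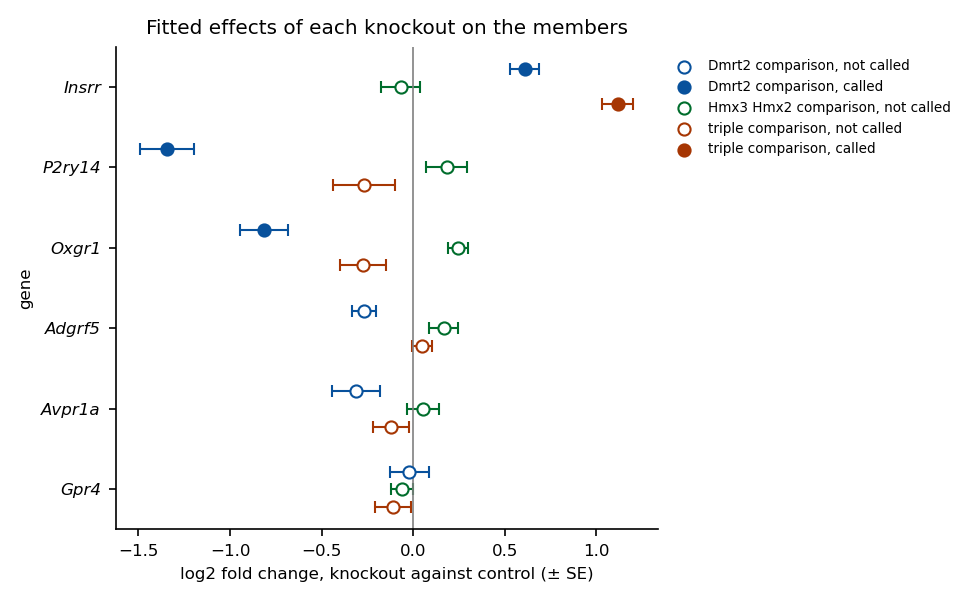
Log2 fold change of each knockout against the controls of its own table for 6 of the genes, with bars of 1 SE (edgeR) and filled points for adjusted p under 0.05. Adcy10 is left out because it was tested in the triple comparison only. Insrr lies right of 0 in the Dmrt2 and triple comparisons, and P2ry14 and Oxgr1 lie farthest left in the Dmrt2 comparison.

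Insrr (mm39 chromosome 3, 87704258 to 87723408, plus strand) was the member that rose. The 3 Dmrt2 knockouts held 38.1, 34.9 and 32.6 CPM and their controls 24.6, 22.2 and 22.3. Every knockout was above every control. The means were 35.2 ± 2.79 and 23.1 ± 1.33 CPM (SD, n = 3 each), 1.53-fold higher in the knockouts (log2 fold change 0.61 ± 0.08 SE, adjusted p = 0.00476).

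In the libraries labelled triple knockout Insrr was at 36.7, 37.2 and 43.3 CPM, against 19.9, 16.8 and 17.5 in their controls. Again the groups did not overlap, while Dmrt2 itself was above its controls in these libraries. Insrr was 2.16-fold higher, with means of 39.1 ± 3.69 and 18.1 ± 1.65 CPM (SD, n = 3 each; log2 fold change 1.12 ± 0.09 SE, adjusted p = 0.000251). Both calls held with each library left out in turn, with adjusted p from 0.00227 to 0.0311 in the Dmrt2 comparison and from 0.000144 to 0.00294 in the triple comparison.

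Without Hmx3 and Hmx2 alone, Insrr ran from 13.3 to 20.3 CPM with a median of 18.2 in 6 knockouts and from 15.99 to 19.95 with a median of 18.4 in 6 controls. These groups overlapped in part (log2 fold change −0.07 ± 0.11 SE, adjusted p = 0.97). Knockout replicates 2 and 5, at 13.8 and 13.3 CPM, lay below every control, and replicate 3, at 20.3 CPM, above every control. Ordered by mean level, the libraries labelled triple knockout and the Dmrt2 knockouts came first with overlapping ranges, the Dmrt2 controls stood apart below them, and the triple controls, Hmx3 Hmx2 controls and Hmx3 Hmx2 knockouts overlapped at the bottom. The Dmrt2 controls, at 22.2 to 24.6 CPM, thus lay above the controls of both other lines. The lines lie in separate tables, so line and table cannot be told apart wherever levels are compared between lines.

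The relatives of Insrr gave 6 tested genes in each comparison. Insrr was the member of that list called in the Dmrt2 and triple comparisons, and the log2 fold changes of all 6 were above 0 in both, from 0.04 to 0.61 and from 0.13 to 1.12. The insulin receptor gene Insr was at 70.3 ± 5.54 against 59.3 ± 1.17 CPM in the Dmrt2 comparison (log2 fold change 0.24 ± 0.06 SE, adjusted p = 0.14) and Igf1r, the receptor for insulin-like growth factors, at 243 ± 21.95 against 234 ± 11.7.

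Oxgr1 (chromosome 14, 120256997 to 120279847, minus strand) was lowest in the Dmrt2 knockouts, at 6.26, 7.86 and 6.81 CPM, against 11.03, 11.11 and 14.6 in their controls. No knockout reached a control, and all 3 lay below each of the other 21 libraries of the series, of which the lowest held 11.03 CPM. Oxgr1 fell 1.76-fold: controls averaged 12.2 ± 2.04 and knockouts 6.97 ± 0.811 CPM (SD, n = 3 each; log2 fold change −0.81 ± 0.13 SE, adjusted p = 0.0238). The call was lost without knockout replicate 1 (adjusted p = 0.0852), 2 (0.0507) or 3 (0.0640) or without control replicate 3 (0.0591), while the log2 fold change stayed between −0.90 and −0.67. With Y-linked reads as a term, where only knockout replicate 1 is set against the 3 controls, it was −0.96 with adjusted p = 0.42.

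Among 6 Hmx3 Hmx2 knockouts Oxgr1 ran from 15.4 to 18.0 CPM with a median of 16.9, and among 6 controls from 12.9 to 15.2 with a median of 13.9. All 6 knockouts were above all 6 controls, a separation shared by 15 genes in the whole comparison. The means, 16.7 ± 1.10 and 14.1 ± 0.923 CPM, differed by a log2 fold change of 0.24 ± 0.06 SE that did not pass over all genes (unadjusted p = 0.00044, adjusted p = 0.76). It lay between 0.21 and 0.27 with each library left out.

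In the libraries labelled triple knockout Oxgr1 was at 14.1, 12.8 and 15.7 CPM, against 19.9, 17.8 and 14.1 in their controls. The groups overlapped (log2 fold change −0.27 ± 0.13 SE, adjusted p = 0.29). It passed only when no filter on low counts was applied (adjusted p = 0.0474). By mean level the groups other than the Dmrt2 knockouts formed a chain from the triple controls to the Dmrt2 controls in which each overlapped the next.

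P2ry14 (chromosome 3, 59021276 to 59061039, minus strand, within the span of Med12l but sharing no exon bases with it) had the largest change among the members. It was at 2.78, 2.91 and 2.38 CPM in the Dmrt2 knockouts and at 7.21, 5.97 and 7.23 in their controls. The knockouts lay below all 21 other libraries, of which the lowest held 3.82 CPM. P2ry14 fell 2.53-fold: controls averaged 6.80 ± 0.724 and knockouts 2.69 ± 0.275 CPM (SD, n = 3 each; log2 fold change −1.34 ± 0.15 SE, adjusted p = 0.00113).

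The fall of P2ry14 passed with each library left out, with adjusted p from 0.00146 to 0.00683, but not with Y-linked reads as a term (log2 fold change −1.28, adjusted p = 0.19). Knockout replicate 1, the knockout with Y-linked reads like the controls, held 2.78 CPM, against 5.97 to 7.23 in those controls.

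Elsewhere P2ry14 did not pass. The 6 Hmx3 Hmx2 knockouts ran from 3.82 to 7.07 CPM with a median of 5.43 and their controls from 4.24 to 5.54 with a median of 4.77 (log2 fold change 0.18 ± 0.11 SE, adjusted p = 0.94). By table, the knockouts of replicates 1 to 3 were at 6.28 ± 0.717 against 4.72 ± 0.311 CPM and those of replicates 4 to 6 at 4.68 ± 0.753 against 4.84 ± 0.659. The libraries labelled triple knockout held 5.20, 4.79 and 5.49 CPM, within or next to the 8.07, 5.81 and 4.83 of their controls (log2 fold change −0.27 ± 0.17 SE, adjusted p = 0.43). Outside the Dmrt2 knockouts the groups overlapped their neighbours in level.

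**Figure D2:**
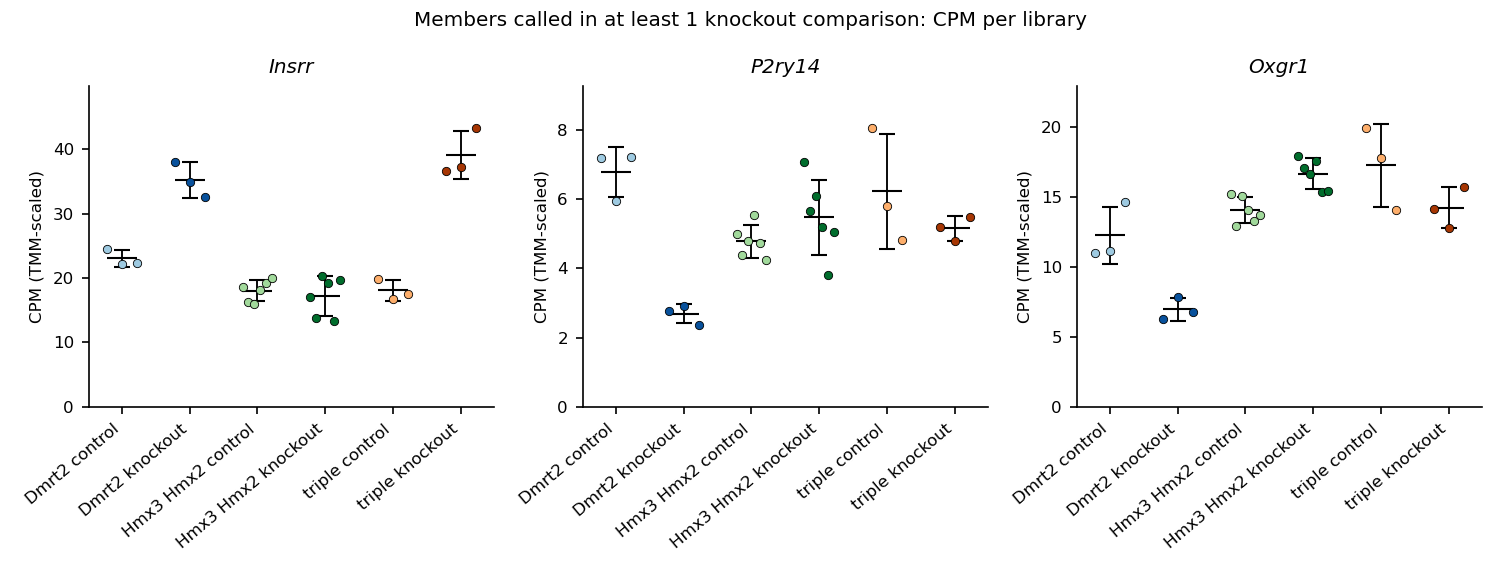
CPM of Insrr, P2ry14 and Oxgr1 in each of the 24 libraries by group, on linear axes that start at 0, with points for libraries and bars for the group mean and SD. The Dmrt2 knockouts and the libraries labelled triple knockout stand above all others for Insrr, and the Dmrt2 knockouts below all others for P2ry14 and Oxgr1.

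Among 15 nucleotide receptors of the P2Y and P2X families 13 were tested, and P2ry14 was the gene called in the Dmrt2 comparison, with a median log2 fold change of −0.13 over the list. P2ry12 and P2ry13, its neighbours on chromosome 3, held under 1 CPM on average and were at −0.13 ± 0.27 and −0.17 ± 0.34 SE. In the triple comparison P2ry2, a receptor for ATP and UTP, was at 5.79 ± 0.551 against 8.40 ± 0.356 CPM and fell (log2 fold change −0.53, adjusted p = 0.0411), a call that held in 1 of 6 refits with a library left out (adjusted p up to 0.15). UDP-glucose acting on intercalated cells is known to raise chemokines. Of 10 chemokine and neutrophil attractant genes 5 to 7 were tested, and edgeR and DESeq2 called 0 of them in each comparison, with 1 (Ccl3, in the triple comparison) at an unadjusted p under 0.05. The neutrophil gene S100a8 fell in the triple comparison (log2 fold change −1.28, adjusted p = 0.0429) at 0.433 ± 0.0460 against 1.06 ± 0.188 CPM, held in 1 of 6 refits (adjusted p up to 0.16), while DESeq2 called 5 of 8 tested macrophage and neutrophil genes there (S100a8, S100a9, Csf1r, C1qa and C1qb, with edgeR log2 fold changes from −1.28 to −0.31), beside 5.04% of all genes. Of the others Ly6g was at 1.18 and did not pass.

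Of 10 metabolite receptor genes 6 to 8 were tested, and Oxgr1 in the Dmrt2 comparison was the call among them. Sucnr1, the succinate receptor, was at 18.0 ± 0.538 against 14.8 ± 3.598 CPM in the Dmrt2 comparison (log2 fold change 0.27, adjusted p = 0.53) and at 21.9 ± 3.07 against 16.8 ± 1.90 in the triple comparison (0.39, adjusted p = 0.15), where DESeq2 called it. Among 12 genes for the ligands or the enzymes that make or use them, Idh1, whose enzyme makes 2-oxoglutarate, fell in the triple comparison, at 230.2 ± 4.00 against 279.9 ± 9.93 CPM (log2 fold change −0.28, adjusted p = 0.0303). That call held in 1 of 6 refits (adjusted p up to 0.12). In the Dmrt2 comparison Idh1 was at 210.1 ± 9.61 against 210.3 ± 24.3 CPM.

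Adgrf5 (chromosome 17, 43671342 to 43770448, plus strand) was at 131.5, 128.2 and 120.2 CPM in the Dmrt2 knockouts and at 146.4, 144.7 and 166.9 in their controls. The ranges were apart, but the difference did not pass (127 ± 5.81 against 153 ± 12.4 CPM, log2 fold change −0.27 ± 0.07 SE, adjusted p = 0.11). DESeq2 called it (adjusted p = 0.0117), as did edgeR without a filter on low counts (0.00234). In the Hmx3 Hmx2 comparison the knockouts ran from 135 to 187 CPM with a median of 149 and the controls from 122.1 to 153.7 with a median of 135, overlapping over much of their range (0.17 ± 0.08 SE, adjusted p = 0.94). The triple comparison gave 154.2, 169.8 and 169.8 against 167.1, 154.7 and 156.7 CPM, with overlapping ranges (0.05 ± 0.06 SE, adjusted p = 0.68). Of its 5-gene subfamily 3 or 4 were tested, and edgeR called 0 in each comparison, with 2 at an unadjusted p under 0.05 and 2 called by DESeq2 (Adgrf1 and Adgrf5, in the Dmrt2 comparison).

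Adgrf5 and Gpr4 are also endothelial genes, so 10 endothelial markers are given beside them. Their summed level, led by Cdh5 and Plvap, was 1470 to 1516 CPM in the Dmrt2 knockouts against 1404 to 1474 in their controls, with ranges that met. It was 1368 to 1498 against 1441 to 1517 CPM in the Hmx3 Hmx2 comparison and 1391 to 1426 against 1331 to 1538 in the triple comparison. Of the 10, edgeR and DESeq2 called 0 in each comparison, with 1, 4 and 2 at an unadjusted p under 0.05.

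Avpr1a (chromosome 10, 122284404 to 122289357, plus strand) was at 9.45, 9.22 and 9.44 CPM in the Dmrt2 knockouts, the lowest values of the series, and at 9.94, 10.50 and 14.4 in their controls. The nearest control lay close to the knockouts, and the difference did not pass (9.37 ± 0.129 against 11.6 ± 2.44 CPM, log2 fold change −0.31 ± 0.13 SE, adjusted p = 0.36). In the Hmx3 Hmx2 comparison Avpr1a ran from 13.1 to 15.8 CPM with a median of 13.8 in the knockouts and from 11.1 to 16.5 with a median of 13.3 in the controls, and the knockouts lay within the range of the controls (0.06 ± 0.09 SE, adjusted p = 0.97). In the triple comparison it was at 17.3, 14.7 and 15.8 against 16.2, 19.7 and 16.3 CPM (−0.12 ± 0.10 SE, adjusted p = 0.54). Of the other vasopressin and oxytocin receptors, Oxtr was at 19.8 ± 1.57 against 18.8 ± 0.518 CPM in the Dmrt2 comparison. Avpr2, the vasopressin receptor of principal cells, averaged 0.11 CPM over all libraries. Of this 4-gene list 2 or 3 were tested, and edgeR and DESeq2 called 0 in each comparison, with 1 at an unadjusted p under 0.05.

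Gpr4 (chromosome 7, 18946463 to 18958099, plus strand) varied least. It was at 12.4, 11.6 and 10.03 CPM in the Dmrt2 knockouts and at 10.6, 12.5 and 11.3 in their controls. Neighbouring groups overlapped throughout the order of levels, from the Dmrt2 controls at 11.5 ± 0.949 to the libraries labelled triple knockout at 10.1 ± 1.07 CPM. The log2 fold changes were −0.02 ± 0.11, −0.06 ± 0.06 and −0.11 ± 0.10 SE in the Dmrt2, Hmx3 Hmx2 and triple comparisons (adjusted p = 0.96, 0.96 and 0.58). Of 9 proton-sensing receptors and channels, all tested in every comparison, edgeR and DESeq2 called 0, with 3 at an unadjusted p under 0.05 over the 3 comparisons. Kcnk5, an alkali-activated potassium channel and the strongest of the list, was at 32.6 ± 1.67 against 30.8 ± 3.86 CPM in the Dmrt2 comparison.

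Adcy10 (chromosome 1, 165312752 to 165404343, plus strand) gave 2 to 32 reads per library, or 0.0325 to 0.284 CPM. Of the counts from 1 to 19 in a library, 87.9% to 94.1% were even. Reads rather than pairs were counted, so 2 reads can come from 1 fragment. Adcy10 passed the filter in the triple comparison alone, with 60 reads in the 3 libraries labelled triple knockout and 31 in the controls (log2 fold change 0.98 ± 0.70 SE, adjusted p = 0.48). Group means ran from 0.0805 ± 0.0231 CPM in the Dmrt2 controls to 0.189 ± 0.0990 in the libraries labelled triple knockout, and each group overlapped the next. A difference in Adcy10 was not detectable at this depth. The transmembrane cyclases were read more strongly, led by Adcy6 at 202 ± 5.02 against 192 ± 12.04 CPM in the Dmrt2 comparison, and of 10 cyclases edgeR and DESeq2 called 0 in each comparison, with 4 at an unadjusted p under 0.05 over the 3 comparisons.

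**Figure D3:**
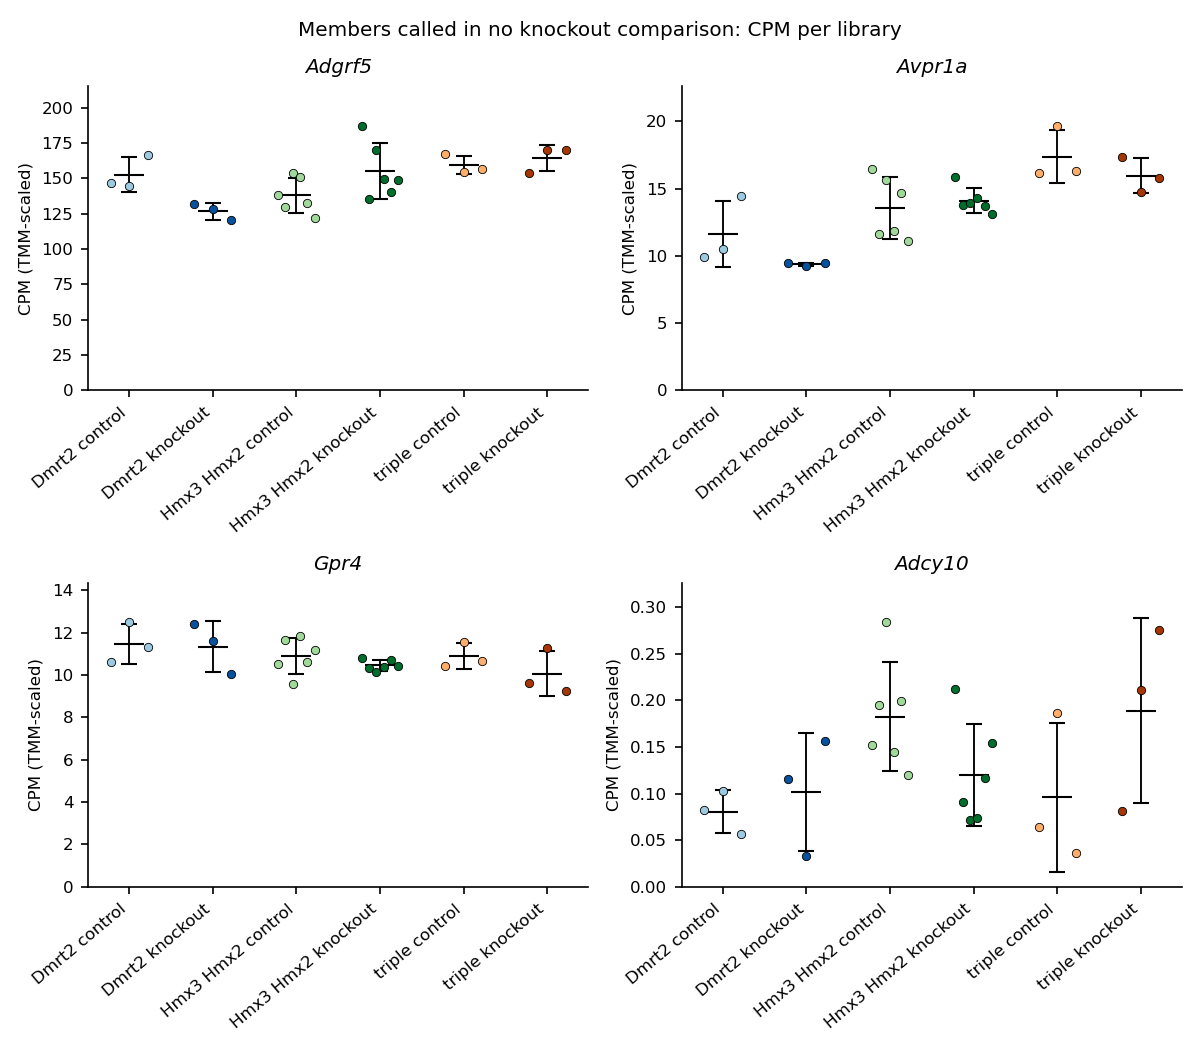
CPM of Adgrf5, Avpr1a, Gpr4 and Adcy10 in each of the 24 libraries by group, on linear axes that start at 0, with bars for the group mean and SD. The Dmrt2 knockouts are lowest for Avpr1a and their range lies below that of their controls for Adgrf5, while groups overlap for Gpr4 and Adcy10.

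Downstream of these receptors, 18 G protein, phospholipase and cyclic AMP effector genes were tested in every comparison. edgeR called 0 of them, 7 were at an unadjusted p under 0.05 over the 3 comparisons, and DESeq2 called Plcb1 in the Dmrt2 and the triple comparisons. Gnai2, an inhibitory G protein subunit and the strongest of the list, was at 573 ± 16.03 against 617 ± 32.1 CPM in the Dmrt2 comparison. Of 16 other receptors of the collecting duct, Calcr, the calcitonin receptor, passed in the triple comparison (1.92 ± 0.268 against 0.954 ± 0.0166 CPM, adjusted p = 0.0401), and that call was lost in each of 6 refits with a library left out (adjusted p from 0.0505 to 0.13).

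The transporters of intercalated cell subtypes give the setting of the sensors. Of 5 genes of type B and related cells edgeR called 2 in the Dmrt2 comparison, 1 in the Hmx3 Hmx2 comparison and 2 in the triple comparison. Slc4a9, a basolateral transporter of type B cells, rose in the Dmrt2 comparison, at 68.4 ± 6.23 against 47.8 ± 1.55 CPM (log2 fold change 0.52, adjusted p = 0.00584), and in the triple comparison, at 86.4 ± 9.67 against 42.5 ± 4.89 CPM (1.03, adjusted p = 0.00653). Both calls held with each library left out. Spink8 was at −0.40 and −0.74 in these comparisons and did not pass in edgeR (adjusted p = 0.33 and 0.14). The other 4 of the 5 genes were above 0 in both. In the triple comparison DESeq2 called Spink8, which was lower, and Sh2d4b, which was higher. Slc26a4, the apical chloride-bicarbonate exchanger pendrin, rose in the Dmrt2 comparison, at 16.2 ± 1.28 against 4.53 ± 1.57 CPM (adjusted p = 0.0165), a call lost without knockout replicate 1 or 2 or control replicate 1 (adjusted p up to 0.0643) or with Y-linked reads as a term (0.42). It fell in the Hmx3 Hmx2 comparison, at 1.48 ± 0.243 against 3.64 ± 0.615 CPM (adjusted p = 0.000485), and rose in the triple comparison, at 7.58 ± 0.0669 against 4.44 ± 0.235 CPM (0.77, adjusted p = 0.00653, lost at 0.0572 without triple knockout replicate 3). Insrr and Oxgr1, both known from the cells that carry pendrin, thus moved in opposite directions in the Dmrt2 knockouts, and neither passed where Slc26a4 fell.

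Of 4 genes of type A cells edgeR called 3 lower in the Dmrt2 comparison and 2 lower in the triple comparison. Slc4a1, the basolateral anion exchanger, fell in the Dmrt2 comparison, at 3.71 ± 0.604 against 16.9 ± 1.45 CPM (log2 fold change −2.19, adjusted p = 2.43e-06), and in the triple comparison, at 7.28 ± 1.14 against 17.8 ± 2.51 CPM (−1.28, adjusted p = 0.00407). Aqp6, a water channel of type A cells, fell in the Dmrt2 comparison, at 0.787 ± 0.156 against 14.6 ± 3.40 CPM (−4.24, adjusted p = 1.49e-06). In the triple comparison it was at 6.52 ± 1.29 against 17.1 ± 3.56 CPM (−1.39, adjusted p = 0.0334), a call lost without triple knockout replicate 3 or control replicate 1 or 2 (adjusted p up to 0.14). Kit fell in the Dmrt2 comparison (−0.56, adjusted p = 0.00229), though not with Y-linked reads as a term (0.32), and was at 0.15 (adjusted p = 0.22) in the triple comparison. Slc26a7, an anion exchanger, was at −0.26 and −0.38 and did not pass in edgeR (adjusted p = 0.32 and 0.0640), while DESeq2 called it in the triple comparison. P2ry14 and Adgrf5, known from type A cells, were at −1.34 and −0.27 in the first comparison and at −0.27 and 0.05 in the second. Atp6v1g3, a proton pump subunit, was the gene edgeR called among the 12 shared by intercalated cells, lower in both (adjusted p = 0.0153 and 0.0403, lost in 1 and 5 of 6 refits). In the Dmrt2 comparison it did not pass with Y-linked reads as a term (0.66), and DESeq2 called Rhbg and Car2 as well. In the Hmx3 Hmx2 comparison edgeR and DESeq2 called 0 of the 4 type A genes and 0 of the 12 shared genes. All were above 0 there, with median log2 fold changes of 0.16 and 0.11 (ranges 0.07 to 0.27 and 0.0012 to 0.22). At an unadjusted p under 0.05 in edgeR were 2 of the 4 and 5 of the 12, beside 4.93% of all genes.

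Lists for the other cells a kidney library could hold were read as well. Over principal cells, endothelium, vascular smooth muscle, stroma, proximal tubule, podocytes, the embryonic kidney and skeletal muscle with adipose tissue, edgeR called 0 genes in each comparison. Over the 14 lists of genes and markers with no edgeR call, 45 values (14.9% of those tested) in the 3 comparisons were at an unadjusted p under 0.05, beside 12.3%, 4.93% and 17.9% of all genes in the Dmrt2, Hmx3 Hmx2 and triple comparisons, and DESeq2 made 12 calls. Defining genes of embryonic kidney such as Pax2, at 401 ± 14.9 against 425 ± 49.4 CPM in the Dmrt2 comparison, were present in every group. The summed level of principal cell genes was 631 to 685 CPM in the Dmrt2 knockouts against 699 to 964 in their controls, and 539 to 642 against 666 to 728 in the triple comparison. Its part in the results was not tested.

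Patterns were compared over the 24 libraries by Pearson's r of log2(CPM + 0.5), each library taken as its difference from the controls of its table, among 15039 genes with a mean of at least 1 CPM. These values describe libraries that fall into groups, with genes sharing libraries and depth, and carry no test. The genes most like Insrr were Mlxipl (r = 0.913), a glucose-responsive transcription factor gene, Slc4a9 (0.912) and Gramd2 (0.909). Mlxipl and Gramd2 rose in the triple comparison (log2 fold change 0.57 and 0.80, adjusted p = 0.00772 and 0.00914), calls lost without triple knockout replicate 3 (0.0704 and 0.0757). In the Dmrt2 comparison they were at 0.25 and 0.31 and did not pass.

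Oxgr1 and P2ry14 were most like the same gene, Aqp6 (r = 0.922 and 0.924), and like each other (0.911). Slc4a1 (0.900) was the other gene named for Oxgr1 and the mucin gene Muc20 (0.898) for P2ry14. Adgrf5 was most like the chloride transporter gene Clcn5 (0.858), Kit (0.857), a receptor tyrosine kinase gene used as a type A marker, and Foxi1 (0.856). Avpr1a was most like Pgm5 (0.871), the carbonic anhydrase gene Car2 (0.860) and Efhd1 (0.844). Gpr4 was less closely matched, by Meiosin (0.723), Ube2s (0.707) and Tmem107 (0.705), and its r with the other members lay between −0.28 and 0.002. Insrr had negative r with each of the other 5, from −0.59 with Oxgr1 to −0.19 with Adgrf5.

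**Figure D4:**
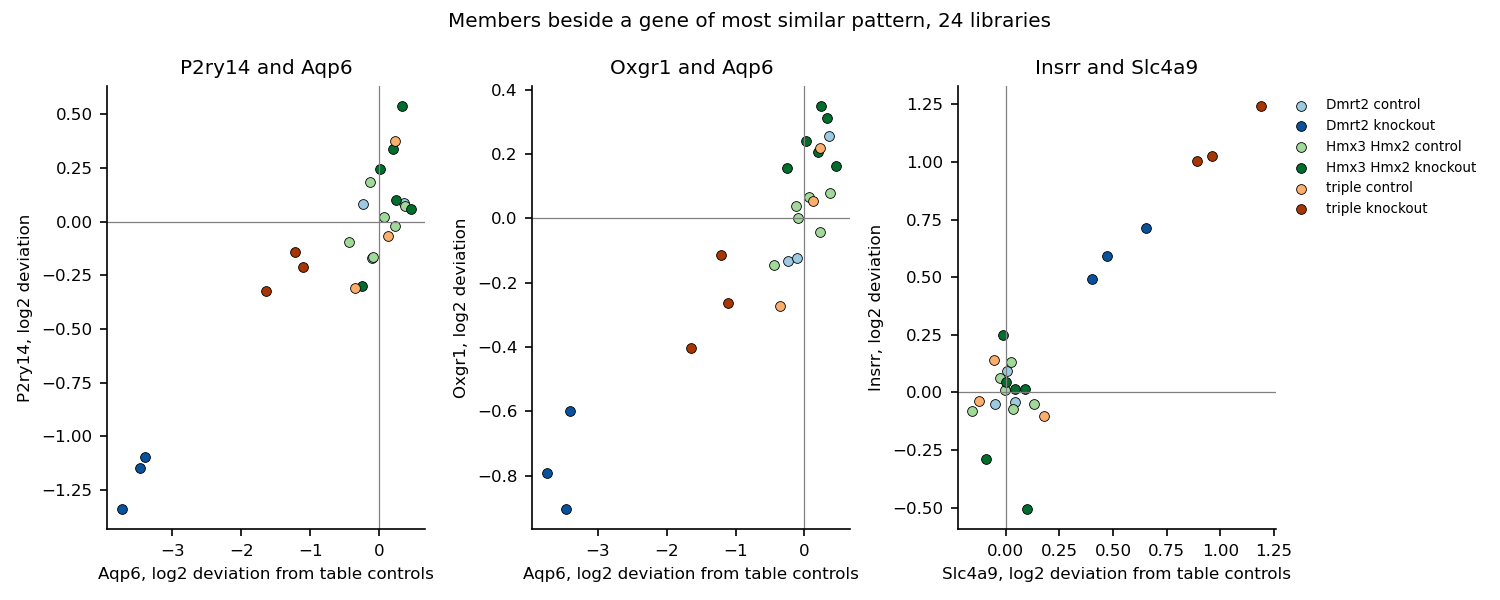
Log2 deviation from the table's controls for P2ry14 and Oxgr1 against Aqp6 and for Insrr against Slc4a9, with 1 point for each of 24 libraries coloured by group. The 3 Dmrt2 knockouts lie apart at the lower left for P2ry14 and Oxgr1, and the libraries labelled triple knockout lie at the upper right for Insrr.

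Insrr and P2ry14 lie on chromosome 3, where knockouts and controls of the Dmrt2 line may differ in strain. In the Dmrt2 comparison 18 of 1015 tested genes of this chromosome were called (1.77%, beside 0.444% of all genes), in the Hmx3 Hmx2 comparison 0 of 979 by edgeR, and in the triple comparison 12 of 1141 (1.05%, beside 1.03%). These counts include the called members: other than members, 16 genes were called in the Dmrt2 and 11 in the triple comparison. Of the 5 nearest tested genes on each side of Insrr edgeR called 0 in each comparison, with log2 fold changes from −0.10 to 0.31 in the Dmrt2 and −0.34 to 0.48 in the triple comparison. Of the 10 around P2ry14 it also called 0 in each, from −0.37 to 0.76 in the Dmrt2 comparison, where P2ry14 itself was at −1.34.

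The nearest called gene to Insrr in the Dmrt2 comparison was Cd1d2, 0.81 Mb away and lower (log2 fold change −2.07), and 7 called genes lay within 5 Mb. For P2ry14 it was Nbea, 3.49 Mb away (0.38), the only called gene within 5 Mb. In the triple comparison the nearest called gene to Insrr was Pklr, 1.34 Mb away (0.42). There 3 called genes lay within 5 Mb of Insrr and 0 within 5 Mb of P2ry14. The strain of each library along the chromosome was not tested.

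**Figure D5:**
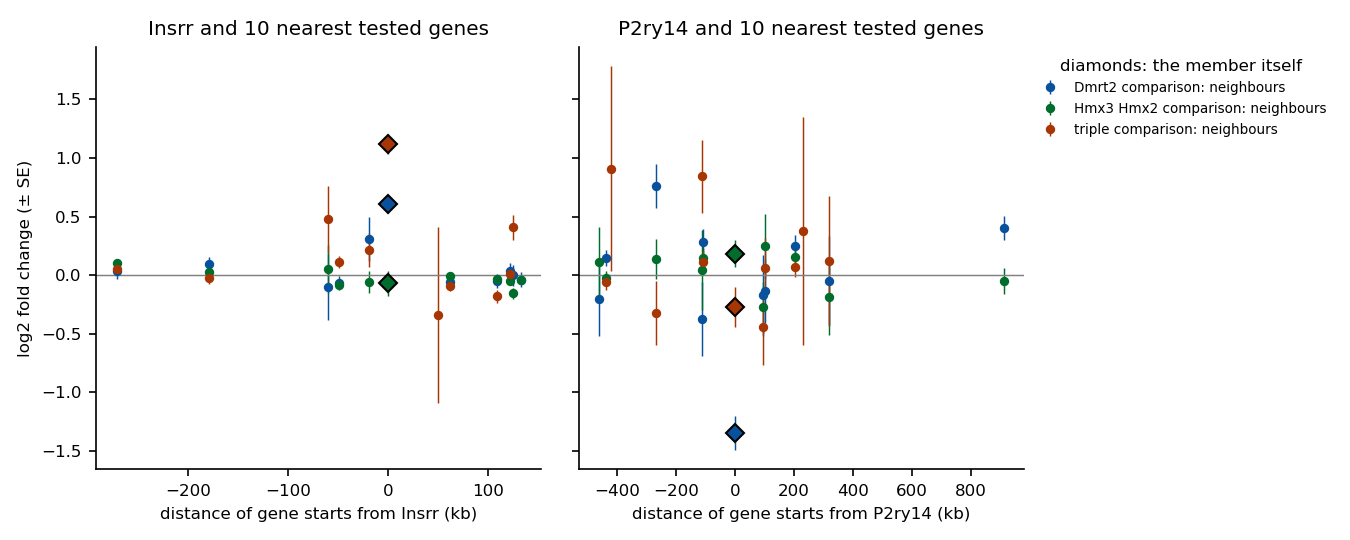
Log2 fold change with bars of 1 SE for Insrr and P2ry14 (diamonds) and the 10 nearest tested genes of each (circles), against the distance of gene starts in kb, in 3 comparisons. Insrr stands above its neighbours in the Dmrt2 and triple comparisons and P2ry14 below its neighbours in the Dmrt2 comparison.

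Effects were compared between knockouts in a single fit of the 24 libraries, each effect relative to controls of its own table. The effect on P2ry14 was lower in the Dmrt2 than in the Hmx3 Hmx2 knockouts by 1.53 ± 0.21 SE on the log2 scale (difference −1.53, adjusted p = 0.000192), and that on Oxgr1 by 1.06 ± 0.14 (difference −1.06, adjusted p = 0.000192). These were 2 of the 7 members, where 0.154% of 22101 genes passed, and both held with each library left out. For Insrr the triple effect exceeded the Hmx3 Hmx2 effect by 1.18 ± 0.16 (adjusted p = 0.000562), the member called where 0.968% of genes passed, and it too held with each library left out.

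The triple effect on P2ry14 lay above the Dmrt2 effect by 1.07 ± 0.23 (adjusted p = 0.0342), the member called where 0.394% of genes passed. This call was lost with Y-linked reads as a term (0.0841) and when any of 7 libraries was left out. These were Dmrt2 knockout replicates 2 (0.0554) and 3 (0.113), Dmrt2 control replicates 1 (0.0701) and 3 (0.0565), triple knockout replicate 3 (0.101) and triple control replicates 2 (0.0738) and 3 (0.100). The difference stayed between 0.92 and 1.30. For Insrr the triple effect was 0.50 ± 0.18 above the Dmrt2 effect (adjusted p = 0.28) and the Dmrt2 effect 0.67 ± 0.16 above the Hmx3 Hmx2 effect (0.11), neither past the threshold; the latter passed in DESeq2 (0.00536) and without Hmx3 Hmx2 knockout replicate 3 (0.0319). For Oxgr1 the triple effect was 0.54 ± 0.16 above the Dmrt2 effect (0.18) and the difference from the Hmx3 Hmx2 effect was −0.52 ± 0.14 (0.0643), which passed in DESeq2 (0.0175), with no filter (0.0314) and without triple control replicate 3 (0.0153). Adgrf5, Avpr1a, Gpr4 and Adcy10 passed in no difference by edgeR with all libraries, the largest for a gene of more than 1 CPM being −0.44 ± 0.11 for Adgrf5 between the Dmrt2 and Hmx3 Hmx2 effects (0.19, with 0.0239 in DESeq2 and 0.0265 without Hmx3 Hmx2 knockout replicate 2).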

How the data were processed

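Whole-kidney RNA was read in 24 libraries. The authors deposited raw read counts for 54393 genes in 4 tables without normalization. Of their columns 2 match no labelled sample and stayed out. Per the submitters' processing notes, fastp 0.20.1 trimmed the reads of 150 bp, STAR 2.7.0e aligned them to mm39 and featureCounts 2.0.1 counted them, while the file headers name featureCounts 2.0.3 and a filtered GENCODE vM29. Per the file headers, reads rather than pairs were counted, without a strand option or multi-mapping reads, so antisense reads cannot be told apart.

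Total counts ran from 52286824 to 127339273 per library. The 24 libraries differed from one another by more than sampling noise, and none was treated as a duplicate. All genes were tested in R 4.3.3 by edgeR 4.0.16 (scaling by TMM, filterByExpr with a minimum count of 10 and total of 15, robust quasi-likelihood F test) with Benjamini-Hochberg adjustment over all genes tested and a threshold of 0.05. Each knockout was compared with controls of its own line, with the table as a term for Hmx3 Hmx2. Printed CPM use TMM-scaled totals of a joint fit of all 24 libraries with the table as a term, which also gave the differences of effects. The standard error (SE) was taken from the F statistic, as the size of the log2 change over the root of F. The procedure was tested on simulated data, where it gave the right direction for nearly all changed genes and missed some of them. In the Dmrt2 and triple designs it made more false calls than the threshold allows for. Positive log2 values are higher in the knockout.

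The genes and 23 gene lists were chosen with earlier results of these data known. Named are the 7 genes, called genes of the lists (otherwise up to 2 of the highest), per gene the 3 most alike, called neighbours among 5 on each side, and the targeted genes; other genes named, such as Plcb1, Ccl3, Sucnr1, Insr, P2ry12, P2ry13, Avpr2, Cd1d2, Nbea and Pklr, were picked after their values were seen. Alternatives were DESeq2 1.42.0, no filter, total-count scaling, halved counts, a Y-linked covariate, a replicate block, the joint fit, single tables and leaving out each library; refits of list genes were added after seeing the data. Promoter windows are from RefSeq on GRCm38.p6, a build whose coordinates differ from those of mm39.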

Additional observations from a re-analysis of the deposited data

Results flagged for a closer look

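Differences between knockout effects that passed edgeR's quasi-likelihood test over all genes are listed here because the same gene responded differently in 2 mouse lines. The triple effect minus the Hmx3 Hmx2 effect was 1.18 on the log2 scale for Insrr, with all 3 libraries labelled triple knockout above their controls and the 6 Hmx3 Hmx2 knockouts overlapping theirs. The Dmrt2 effect minus the Hmx3 Hmx2 effect was −1.06 for Oxgr1, where 3 of 3 Dmrt2 knockouts lay below and 6 of 6 Hmx3 Hmx2 knockouts above their controls. The same difference was −1.53 for P2ry14, where 3 of 3 Dmrt2 knockouts lay below their controls. The triple effect minus the Dmrt2 effect was 1.07 for P2ry14, a call that did not hold without any of 7 libraries. No library stood apart within its group in the 14 sets of 6 libraries examined.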

How the results depend on the processing

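The calls of Insrr kept their direction and passed under every alternative run. Over the members' fold changes, 284 of 300 values under alternatives kept direction and side of the threshold, 6 lost the call, 3 gained it and 7 changed sign; over differences of effects these were 418 of 436, 9, 7 and 2. Genes called in the Dmrt2 comparison numbered 88, against 429 by DESeq2 (228 higher and 201 lower, beside 37 and 51), 676 with no filter, and 13 under the Y-linked covariate, which left 1 member called. With each library left out they ran from 26 (knockout replicate 2) to 195 (control replicate 1), with 53 for control replicate 3, and members from 2 to 3. In the Hmx3 Hmx2 comparison 4 genes became 2 in each table alone, DESeq2 called 5 (2 higher and 3 lower, beside 1 and 3), and leaving out a library gave 4 genes and 0 members each time. In the triple comparison 222 became 1085 by DESeq2, 1510 without a filter (2 members) and 573 in the joint fit, and ran from 20 (knockout replicate 3) to 438 (control replicate 3) with a library left out, with 96 for knockout replicate 2, 145 and 84 for control replicates 1 and 2, and 1 member each time. Total-count scaling gave 196 higher and 92 lower there, beside 126 and 96.

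For differences of effects, DESeq2 called 254 genes (triple minus Dmrt2, 87 by edgeR), 551 (triple minus Hmx3 Hmx2, 214 by edgeR; 2 members) and 94 (Dmrt2 minus Hmx3 Hmx2, 34 by edgeR; 4 members), and no filter gave 2 members for the second. With a library left out the counts ran from 37 to 118, 49 to 272 and 13 to 49, with 0 to 1, 1 to 2 and 2 to 3 members. The Y-linked covariate left 0 members for triple minus Dmrt2.

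The replicate numbers did not meet the rule for pairing (every pair over 0.1): same-numbered knockouts and controls correlated at 0.038 to 0.077 (Dmrt2), −0.008 to 0.216 (Hmx3 Hmx2) and −0.166 to 0.004 (triple), and 2 of 3, 4 of 6 and 0 of 3 correlated best with their own number. With the replicate block 80, 5 and 51 genes were called, with the same numbers of members as without it, and 0 members for triple minus Dmrt2, where P2ry14 was at 1.10 (adjusted p = 0.0531).

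Signs changed only for values that did not pass. Gpr4 in the Dmrt2 comparison became 0.12 with the Y-linked covariate, 0.065 without knockout replicate 3 and 0.04 without control replicate 2, in a range of −0.091 to 0.065 with a library left out. Insrr in the Hmx3 Hmx2 comparison became 0.0085 in replicates 1 to 3 and 0.018 without knockout replicate 5 (range −0.14 to 0.018), P2ry14 −0.050 in replicates 4 to 6, and Avpr1a −0.0017 without control replicate 2 (range −0.0017 to 0.11). The Gpr4 difference Dmrt2 minus Hmx3 Hmx2 became −0.040 without Dmrt2 knockout replicate 1 and −0.015 without Dmrt2 control replicate 1 (range −0.040 to 0.12). The causes were not tested. Adcy10 alone among the members failed the filter on low counts, in the Dmrt2 and Hmx3 Hmx2 comparisons.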
